A study of Caenorhabditis elegans with 11 samples.

Results

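The genes described here encode nuclear subunits and assembly proteins of the mitochondrial respiratory chain and the ATP synthase of Caenorhabditis elegans. They were chosen by name: probe sets with 1 gene symbol of the families nuo, sdha to sdhd, ucr, cox, atp, asb and asg, together with gas-1, lpd-5, mev-1, isp-1, cyc-1 and cyc-2.1. Each gene was represented by its probe set with the highest mean over all arrays. The rule gave 41 genes, carried by 56 probe sets, of 17118 genes and 22548 non-control probe sets in all. It matches 45 genes in the RefSeq gene table of assembly WBcel235, and cox-14, cox-16, nuo-3 and ucr-11 were not analysed here. The 41 genes comprise 7 of complex I, 5 of complex II, 7 of complex III and cytochrome c, 7 subunits and 6 assembly proteins of complex IV, and 9 of the ATP synthase.

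The respiratory chain carries electrons from NADH (complex I) and succinate (complex II) through coenzyme Q to complex III, cytochrome c and complex IV, where oxygen is reduced. Complexes I, III and IV pump protons across the inner mitochondrial membrane, and the ATP synthase uses their return to make ATP. In C. elegans, mutants of nuo-6 and isp-1 and knockdown of cyc-1, cox-5B or atp-3 are known for long life, whereas mutants of gas-1 and mev-1 are known for short life and sensitivity to oxidative stress.

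RNA was measured on 11 Affymetrix arrays, 1 per sample, from whole hermaphrodites of the mutant strain glp-1(e2141), whose altered Notch receptor fails at high temperature and leaves the germ line unable to proliferate. All worms came from embryos grown at 15 °C, were kept from the first larval stage at 25 °C, at which they are sterile, and were collected on day 8. The 4 groups, by sample title, were 3 arrays of glp-1 without males, 3 of glp-1 with wild-type males, 3 of glp-1 under utx-1 RNAi without males and 2 (replicates 1 and 3) of glp-1 under utx-1 RNAi with wild-type males. Plates of 10 cm held 500 hermaphrodites, or 250 hermaphrodites and 250 males, and 200 hermaphrodites were extracted after the males had been taken off, so the presence of males cannot be told apart from the smaller number of hermaphrodites. No empty-vector RNAi group is named, so loss of utx-1, a histone H3 lysine 27 demethylase gene, and a response to RNAi treatment in general cannot be told apart. The labels call the samples of a condition independent experiments.

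All levels below are the deposited log2 values, differences are log2 differences ± the standard error of a limma fit over the 11 arrays, and each adjusted p is limma's, after Benjamini-Hochberg adjustment over all 22548 probe sets. "Fell" and "rose" are kept for an adjusted p under 0.05. The number of arrays limits the precision. In whole worms, fewer cells of a type and less RNA per cell cannot be told apart. Of the 41 genes, 38 had a mean level above the median of all probe sets, and cox-10, ucr-2.3 and cox-19 lay below it.

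Both arrays from utx-1 RNAi with males stood apart from the rest. They correlated with each other across probe sets at 0.995 and with the other 9 at 0.961 to 0.983, whereas those 9 correlated among themselves at 0.986 or more. On these 2 arrays germ cell genes were high: the mean level of 24 germ cell markers was 6.62 and 6.82 there against 3.41 to 3.95 on the other 9, and 12 of the 24 lay below the array median on all 9 and 0 on these 2. The targeted gene utx-1 was lower on every array whose title names its RNAi than on every array without it. Its first probe set measured 7.03 to 7.14 on the 6 arrays without RNAi and 4.41 to 5.0 on the 5 with it, and its second 11.54 to 13.09 against 6.42, 4.81 and 5.13 under utx-1 RNAi without males and 9.06 and 8.40 under utx-1 RNAi with males. Under RNAi, the second probe set was therefore higher on both arrays with males than on the 3 without. It was also higher with males without RNAi, at 12.575, 13.07 and 13.09 against 11.54, 12.45 and 12.01 without males.

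Respiratory chain and ATP synthase genes were lower in hermaphrodites kept with males. The mean level of the 41 genes was 8.70, 8.58 and 8.59 in glp-1 without males and 8.32, 8.30 and 8.31 with males. Under utx-1 RNAi it was 8.54, 8.61 and 8.48 without males and 8.38 and 8.45 with males. In both RNAi backgrounds every array with males lay below every array without.

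**Figure D1:**
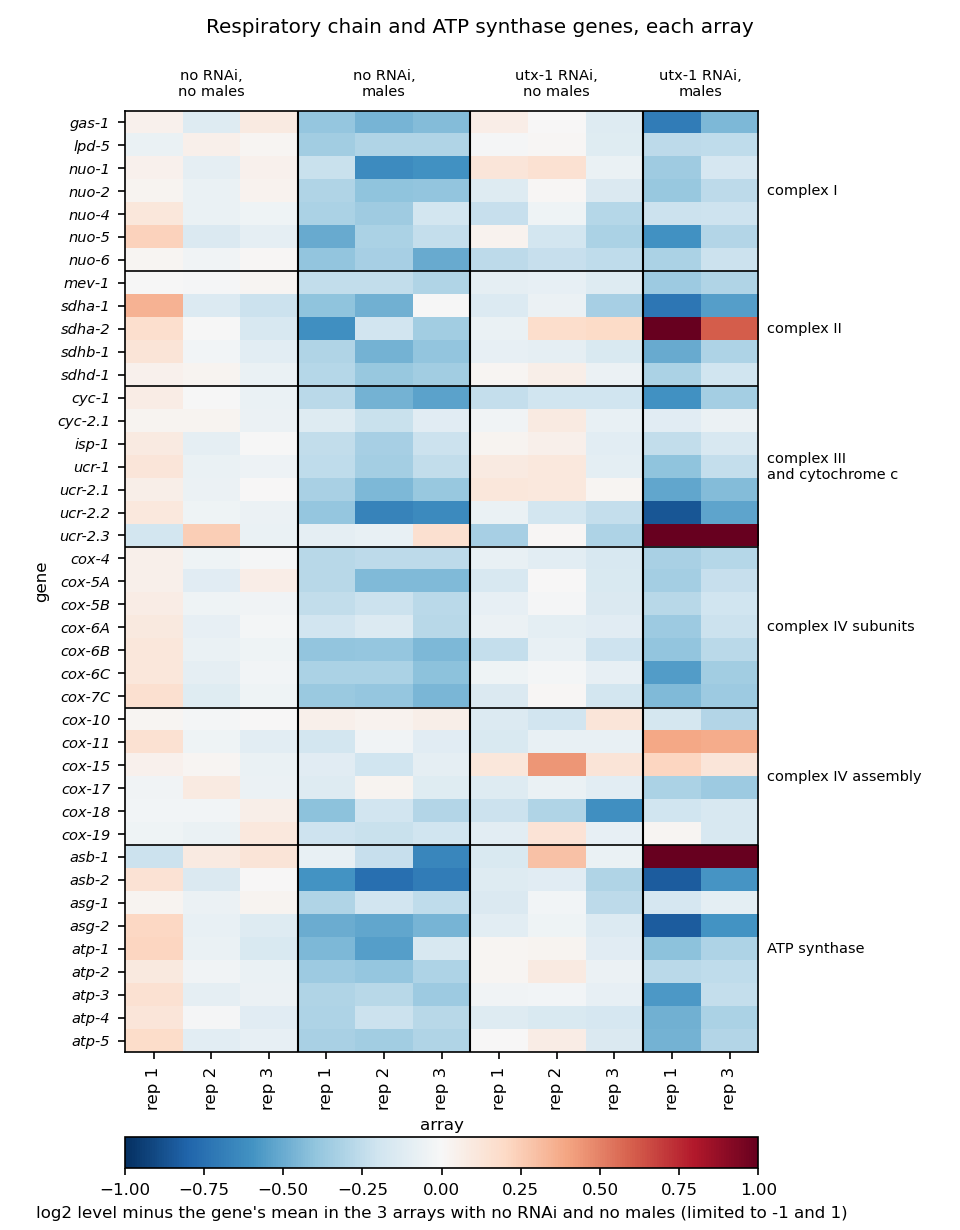
Heat map of the log2 level of each of the 41 genes (rows, by complex) on each of the 11 arrays (columns, by group), shown as the difference from the gene's own mean over the 3 arrays of glp-1 without males, with the colour scale limited to 1 in both directions. Most genes are below that mean on the 3 arrays of glp-1 with males, and asb-1, ucr-2.3 and sdha-2 are above it on both arrays from utx-1 RNAi with males.

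Without RNAi, 23 of the 41 genes fell with males, 0 rose and 18 did not pass the test. Over all probe sets 6.15% fell and 5.65% rose in this comparison. At an unadjusted limma p under 0.05 there were 33 genes, all of them lower with males. Of all 22548 probe sets, 5784 had such an unadjusted p, in either direction. The median difference of the 41 genes was -0.32, which is a change of -19.9% in the level, with quartiles of -0.39 and -0.26, and 40 of the 41 differences were negative, the exception being cox-10. The median over all probe sets was -0.01. For 35 genes all 3 arrays with males lay below all 3 without, which held for 16.9% of all probe sets. Without both arrays from utx-1 RNAi with males in the fit 22 genes fell, and with replicate 1 of glp-1 without males left out 13 did.

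**Figure D2:**
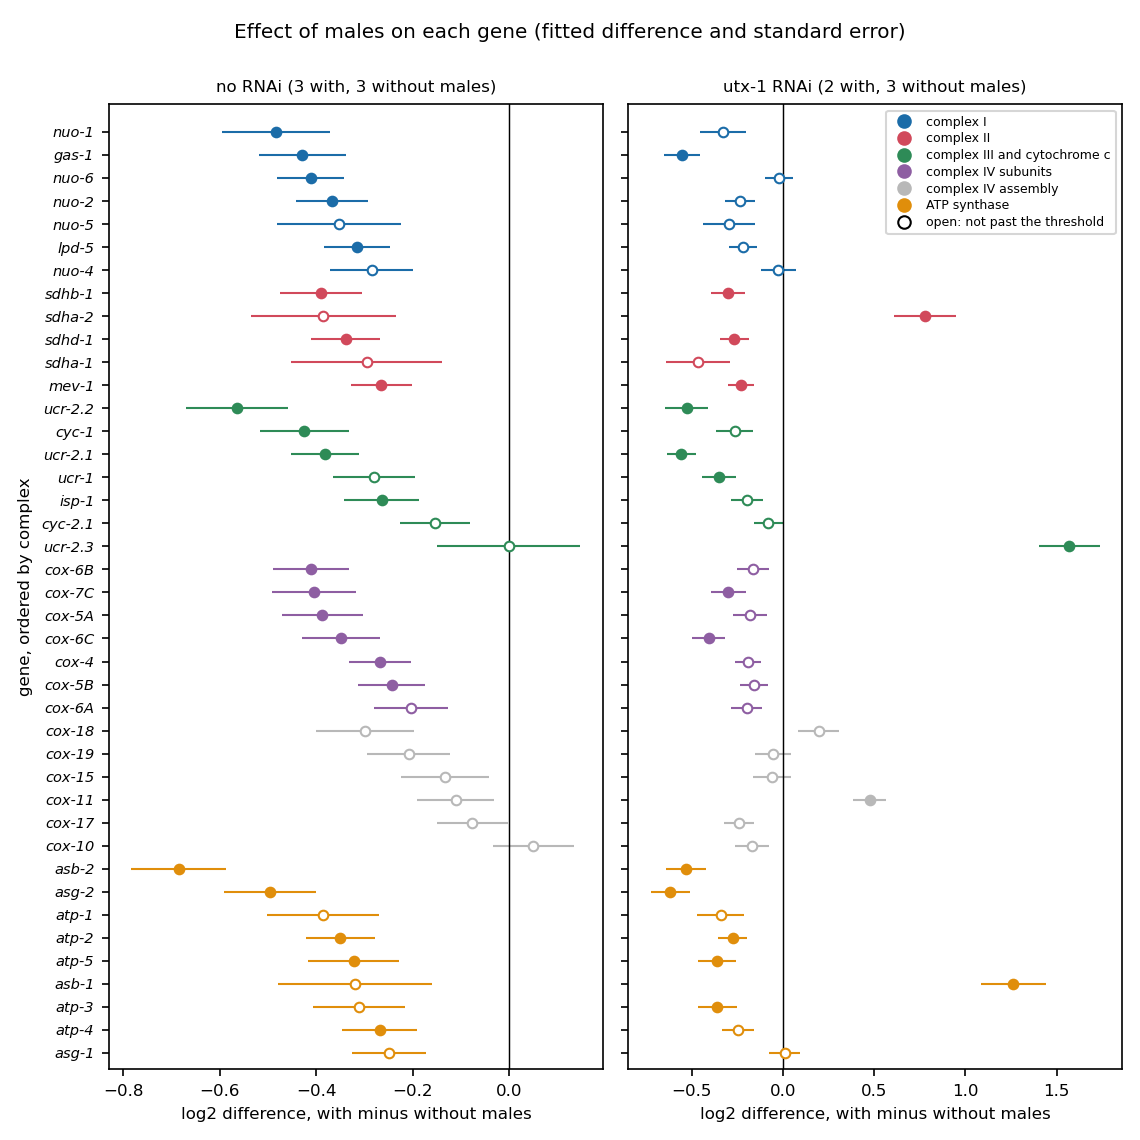
Log2 difference with males minus without males for each of the 41 genes, by complex, without RNAi in 1 panel and under utx-1 RNAi in the other; points are the fitted difference, bars its standard error, and filled points passed an adjusted p under 0.05. Without RNAi 23 genes are filled below 0 and none above; under utx-1 RNAi 14 are filled below and 4 above.

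Complex I takes electrons from NADH. Without RNAi 5 of its 7 genes fell with males, with a median difference of -0.37 and a range of -0.48 to -0.29. The gene nuo-6, for the accessory subunit NDUFB4, was at 8.16, 8.10 and 8.15 without males and at 7.74, 7.80 and 7.64 with males. The groups did not overlap, and nuo-6 fell by 0.41 ± 0.07 (adjusted p = 0.00403). For nuo-2, which encodes NDUFS3 of the hydrophilic arm, the levels were 9.0, 8.90 and 9.01 without males and 8.67, 8.57 and 8.57 with males. Here too every array with males was lower, and the difference was -0.37 ± 0.07 (adjusted p = 0.00922). The complex I subunit gene gas-1 measured 8.76, 8.59 and 8.81 without males against 8.33, 8.25 and 8.29 with males. This left 74.3% of its level, a difference of -0.43 ± 0.09 (adjusted p = 0.0109). Also past the threshold were nuo-1 (NDUFV1, the NADH-binding subunit) at -0.48 ± 0.11 and lpd-5 (NDUFS4) at -0.31 ± 0.07. The remaining genes were nuo-4 (NDUFA10) at -0.29 with an adjusted p of 0.0517 and nuo-5 (NDUFS1) at -0.35 with 0.101. A second, dimmer probe set fell for each, by 0.30 ± 0.07 for nuo-4 (adjusted p = 0.0188) and by 0.48 ± 0.09 for nuo-5 (adjusted p = 0.00582).

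Complex II, succinate dehydrogenase, joins the TCA cycle to the chain. Its iron-sulfur subunit and both membrane anchors fell. The iron-sulfur subunit gene sdhb-1 went from 9.54, 9.38 and 9.30 to 9.10, 8.94 and 9.01, a difference of -0.39 ± 0.09 (adjusted p = 0.0127). The anchor gene sdhd-1 went from 8.71, 8.69 and 8.60 to 8.38, 8.29 and 8.32, or -0.34 ± 0.07 (adjusted p = 0.0109), and the anchor gene mev-1 from 9.51, 9.50 and 9.53 to 9.27, 9.27 and 9.21, or -0.26 ± 0.06 (adjusted p = 0.0187). In all 3 genes the arrays with males lay below those without. The call of sdhb-1 was lost with replicate 1 of glp-1 without males left out, with replicate 2 of glp-1 with males left out and with the dimmer probe set of the gene, where the adjusted p reached 0.0555. That of mev-1 was lost under 4 of 22 alternatives, with an adjusted p of up to 0.0746. Both genes of the flavoprotein subunit missed the threshold, sdha-1 at -0.30 ± 0.16 (adjusted p = 0.266) and sdha-2 at -0.38 ± 0.15 (adjusted p = 0.129).

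In complex III, which passes electrons from reduced coenzyme Q to cytochrome c, 4 of 7 genes fell and the median was -0.28. The core protein genes ucr-2.1 and ucr-2.2 had the smallest p. The levels of ucr-2.1 were 9.86, 9.74 and 9.80 without males and 9.48, 9.36 and 9.43 with males, and those of ucr-2.2 were 8.22, 8.07 and 8.05 against 7.73, 7.44 and 7.47. Their differences were -0.38 ± 0.07 (adjusted p = 0.00603) and -0.56 ± 0.11 (adjusted p = 0.00637), the latter leaving 67.6% of the level. The cytochrome c1 gene cyc-1 was at 8.23, 8.16 and 8.09 without males and 7.89, 7.68 and 7.63 with males, with no overlap, and fell by 0.42 ± 0.09 (adjusted p = 0.0120). The Rieske iron-sulfur protein gene isp-1 fell by 0.26 ± 0.08 (adjusted p = 0.0458), a call that passed under 9 of 21 alternatives, with an adjusted p of up to 0.160 with replicate 1 of glp-1 without males left out. The same omission gave cyc-1 an adjusted p of 0.0514. The other core protein gene ucr-1, at -0.28 (adjusted p = 0.0537), and the cytochrome c gene cyc-2.1, at -0.15 (adjusted p = 0.205), did not pass. The third ucr-2 gene, ucr-2.3, was dim in both groups, at 3.19, 3.63 and 3.31 without males and 3.29, 3.30 and 3.53 with males, and its difference was -0.00 ± 0.15.

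Complex IV, cytochrome c oxidase, had the highest share of falling genes among the complexes, 6 of 7 subunits, with a median of -0.35. These 7 are nuclear subunits around a catalytic core that mitochondrial DNA encodes, and the genes of that core were not analysed here. Their mean level was 11.07, 10.89 and 10.96 without males and 10.68, 10.67 and 10.61 with males. For cox-6B the values were 11.49, 11.31 and 11.34 without males and 10.99, 10.99 and 10.93 with males, and for cox-7C 10.68, 10.40 and 10.48 against 10.14, 10.13 and 10.06. Neither gene overlapped between the groups, and the differences were -0.41 ± 0.08 (adjusted p = 0.00695) and -0.41 ± 0.09 (adjusted p = 0.0116). The others that fell were cox-5A at -0.39, cox-6C at -0.35, cox-4 at -0.27 and cox-5B at -0.24. The call of cox-5B (adjusted p = 0.0419) passed under 10 of 22 alternatives, with an adjusted p of up to 0.146 with replicate 1 of glp-1 without males left out, and a second probe set of cox-5A differed by -0.06 ± 0.08 (adjusted p = 0.684). The subunit gene cox-6A was at -0.20 (adjusted p = 0.113).

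Of the 6 assembly genes of complex IV 0 fell and 0 rose, and their median was -0.12. Their levels lay between percentiles 39.2 and 63.8 of all probe sets, against 97.1 and 98.7 for the 7 subunits, and the deposited RMA values compress changes of dim probe sets. A difference between assembly genes and subunits was not tested. The smallest p belonged to cox-18, for a protein that inserts a core subunit into the membrane, at 4.38, 4.37 and 4.47 without males and 3.99, 4.21 and 4.11 with males (difference -0.30 ± 0.10, adjusted p = 0.0803), and to cox-19, at -0.21 ± 0.09 (adjusted p = 0.149). The copper delivery genes cox-11 and cox-17 were at -0.11 and -0.08, the haem A synthase gene cox-15 at -0.13 and the haem O synthase gene cox-10 at 0.05.

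Of the 9 ATP synthase genes 5 fell, with a median of -0.32 and a range of -0.69 to -0.25. The largest fall of all 41 genes was that of asb-2, which encodes subunit b of the peripheral stalk. It measured 9.73, 9.44 and 9.59 without males and 8.98, 8.83 and 8.89 with males, a gap that no array crossed. It fell by 0.69 ± 0.10 to 62.2% of its level (adjusted p = 0.00188). The subunit g gene asg-2 was at 10.23, 9.95 and 9.89 without males and at 9.53, 9.50 and 9.56 with males, or -0.50 ± 0.10 (adjusted p = 0.00735). The gene of the catalytic beta subunit, atp-2, was at 10.60, 10.47 and 10.44 against 10.14, 10.12 and 10.19, or -0.35 ± 0.07 (adjusted p = 0.00987). The calls of asb-2 and asg-2 passed under all 22 alternatives run. The genes atp-5 (subunit d) and atp-4 (coupling factor 6) fell by 0.32 and 0.27, with adjusted p of 0.0474 and 0.0462. Another probe set of atp-5 missed the threshold at -0.24 (adjusted p = 0.119), and another fell by 0.43 (adjusted p = 0.00752). A second probe set of atp-4 fell by 0.34 (adjusted p = 0.0329). Close to the threshold were atp-1, the alpha subunit, at -0.39 (adjusted p = 0.0501), the oligomycin sensitivity protein gene atp-3 at -0.31 (adjusted p = 0.0557) and asg-1 at -0.25 (adjusted p = 0.0576). The second subunit b gene, asb-1, was at -0.32 ± 0.16 with an adjusted p of 0.239, and its groups overlapped.

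Under utx-1 RNAi, 14 of the 41 genes fell with males and 4 rose, against 9.03% and 11.8% of all probe sets. The median difference was -0.24, or -15.1%, beside -0.03 over all probe sets, and 35 of 41 differences were negative. For 28 genes both arrays with males lay below all 3 without, which held for 25.6% of all probe sets. With each array centred on its median, which moves the median difference over all probe sets by -0.121, 29 genes fell and 4 rose. Under that centring 5553 of all 22548 probe sets fell and 2012 rose. Of the 41 genes, 3 fell with replicate 1 of utx-1 RNAi with males left out. Without replicate 1 or replicate 2 of utx-1 RNAi without males, 6 of them fell.

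The 14 genes that fell under utx-1 RNAi were gas-1 of complex I, sdhb-1, sdhd-1 and mev-1 of complex II, ucr-1, ucr-2.1 and ucr-2.2 of complex III, cox-6C and cox-7C of complex IV, and asb-2, asg-2, atp-2, atp-3 and atp-5 of the ATP synthase. The core protein gene ucr-2.1 was at 9.92, 9.91 and 9.82 without males and at 9.28 and 9.37 with males, and fell by 0.56 ± 0.08 (adjusted p = 0.000353). The subunit g gene asg-2 was at 9.92, 9.98 and 9.88 without males and at 9.19 and 9.43 with males, and fell by 0.62 ± 0.11 (adjusted p = 0.00151). The complex I gene gas-1 was at 8.79, 8.72 and 8.59 without males and at 8.02 and 8.27 with males, or -0.55 ± 0.10 (adjusted p = 0.00216). These 3 were past the threshold under every alternative run. The replicate 1 array of utx-1 RNAi with males was the lower of the 2 arrays for each of them.

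Further falls were asb-2 by 0.53 ± 0.11 (adjusted p = 0.00450), cox-6C by 0.41 ± 0.09 (adjusted p = 0.00687) and ucr-2.2 by 0.53 ± 0.12 (adjusted p = 0.00760). With replicate 1 of utx-1 RNAi with males left out, their adjusted p were 0.0826, 0.121 and 0.134. The calls of sdhd-1 at -0.26, mev-1 at -0.23, cox-7C at -0.30 and atp-3 at -0.36 were lost under 6 or more alternatives each, among them the omission of that array, where the adjusted p were 0.282, 0.258, 0.275 and 0.404. Complex I had 1 call of 7 (median -0.24), and next in p after gas-1 was lpd-5 at -0.22 (adjusted p = 0.0655). The long-lived mutant gene isp-1 and the knockdown genes cyc-1 and cox-5B were at -0.20, -0.26 and -0.16, with adjusted p of 0.135, 0.0922 and 0.185. A second probe set of cyc-1 fell by 0.45 ± 0.10 (adjusted p = 0.00601), and those of gas-1 and ucr-2.2 fell by 0.65 and 0.60. That of sdhb-1 missed the threshold at -0.31 (adjusted p = 0.0691). For atp-5, another probe set was at -0.17 (adjusted p = 0.280) and another fell by 0.41 (adjusted p = 0.00852).

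The comparison with males without RNAi and that under utx-1 RNAi share no array. Of the 23 genes that fell in the first, 12 also fell in the second, which is 52.2% of the 23 and 85.7% of the 14. Negative differences in both were found for 34 of the 41 genes. Over all probe sets 6.15% fell in the first and 9.03% in the second. How many of all probe sets fell or were negative in both was not counted, so the overlap has no such share beside it. The 12 were gas-1, mev-1, sdhb-1, sdhd-1, ucr-2.1, ucr-2.2, cox-6C, cox-7C, asb-2, asg-2, atp-2 and atp-5.

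Of the 41 genes, 6 lie on chromosome X in RefSeq assembly WBcel235: gas-1, sdha-1, ucr-2.1, ucr-2.2, asb-2 and asg-2. This split was made after the values were seen, and no test was made of it. Other genes on chromosome X were not counted, so whether the split is particular to these genes is not known. Over all probe sets 6.15% fell with males without RNAi, and 9.03% fell and 11.8% rose under utx-1 RNAi. Without RNAi 5 of the 6 fell with males, with a median of -0.46, against 18 of the 35 others with a median of -0.31. Under utx-1 RNAi 5 of the 6 fell, with a median of -0.54, whereas 9 of the 35 fell, 4 rose and their median was -0.20.

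The 4 genes that rose with males under utx-1 RNAi were asb-1, ucr-2.3, sdha-2 and cox-11. The ATP synthase gene asb-1, known in C. elegans as the germ line isoform of subunit b, was at 6.11, 6.55 and 6.20 without males and at 7.69 and 7.41 with males. Both arrays with males were above the other 9 arrays of the series, and asb-1 rose by 1.26 ± 0.18, to 2.40 times its level (adjusted p = 0.000359). The core protein gene ucr-2.3 was at 3.04, 3.39 and 3.07 without males and at 4.98 and 4.50 with males, a rise of 1.57 ± 0.17 (adjusted p = 3.09e-05). The flavoprotein gene sdha-2 was at 5.29, 5.54 and 5.56 without males and at 6.52 and 5.97 with males, a rise of 0.78 ± 0.17 (adjusted p = 0.00628). Its adjusted p was 0.113 with replicate 1 of utx-1 RNAi with males left out, the higher of the 2 arrays. The copper delivery gene cox-11 was at 4.90, 4.98 and 4.98 without males and at 5.44 and 5.42 with males, a rise of 0.48 ± 0.09 (adjusted p = 0.00271).

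**Figure D3:**
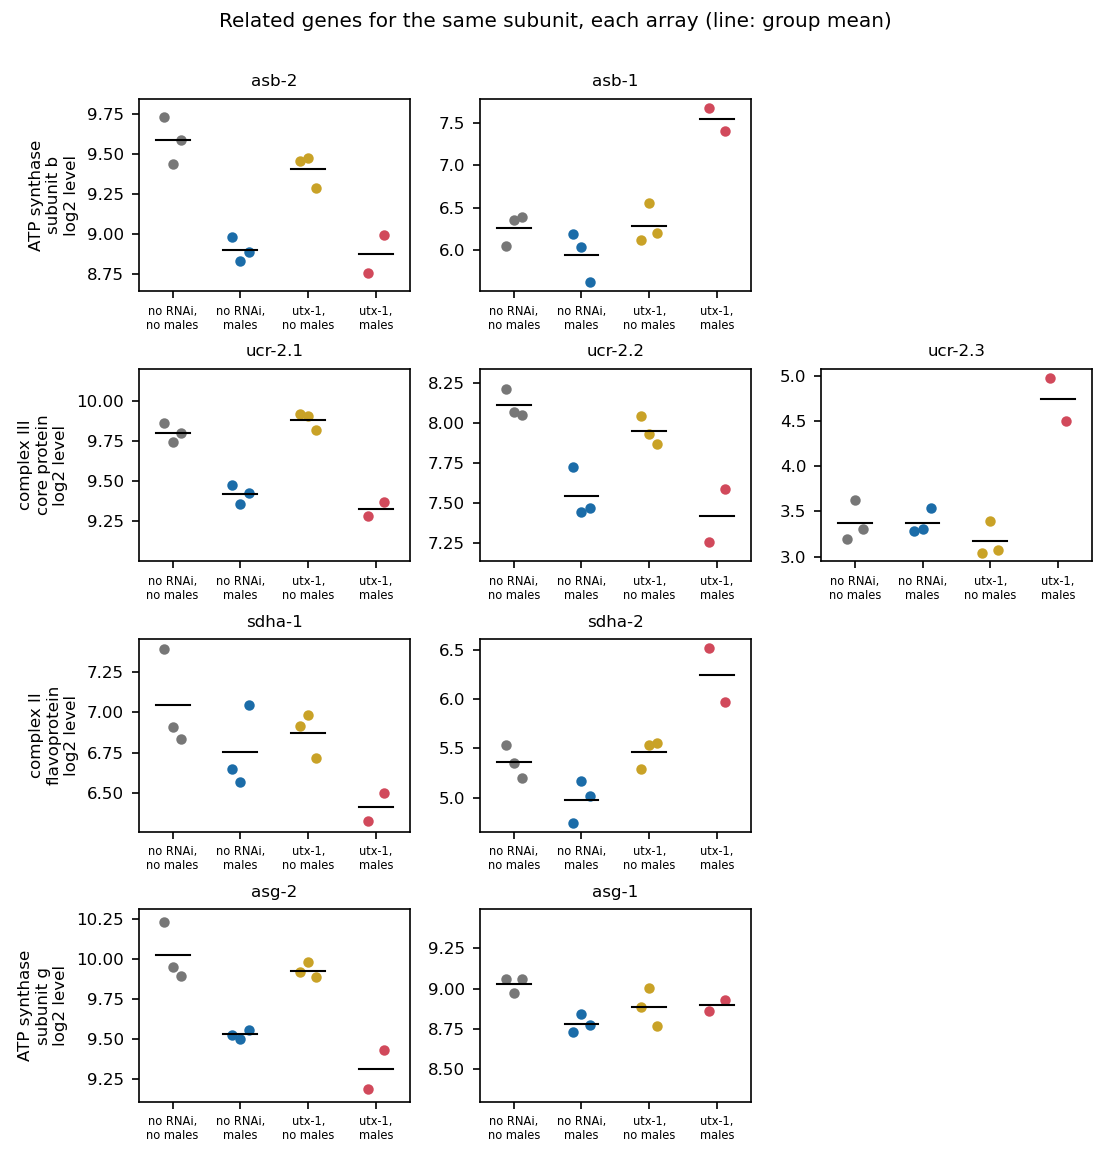
Log2 level on each of the 11 arrays, by group, of genes that encode the same kind of subunit: asb-2 and asb-1, ucr-2.1, ucr-2.2 and ucr-2.3, sdha-1 and sdha-2, asg-2 and asg-1, each gene with its own vertical axis. On both arrays from utx-1 RNAi with males, asb-1, ucr-2.3 and sdha-2 are above all other arrays, whereas asb-2, ucr-2.1, ucr-2.2 and asg-2 are below all arrays without males.

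In 2 families, genes for the same kind of subunit moved in opposite directions with males under utx-1 RNAi. Subunit b fell for asb-2 and rose for asb-1, and the ucr-2 family fell for ucr-2.1 and ucr-2.2 and rose for ucr-2.3. The flavoprotein gene sdha-1 was at 6.91, 6.98 and 6.72 without males and at 6.32 and 6.49 with males (difference -0.46 ± 0.17, adjusted p = 0.0823), whereas sdha-2 rose. For subunit g, asg-2 fell and asg-1 was at 0.01 ± 0.09 (adjusted p = 0.951). The probe sets of asb-1, sdha-2, gas-1 and ucr-2.2 are of a type that can bind transcripts of related genes.

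Germ cell markers were high on the same 2 arrays. All 24 rose with males under utx-1 RNAi, with a median of 3.17, and their summed level (log2) was 11.88 to 11.98 against 8.84 to 9.08 in utx-1 RNAi without males, 8.81 to 9.14 in glp-1 without males and 9.10 to 9.44 in glp-1 with males. Of 12 oocyte and eggshell markers 10 rose, with a median of 4.10, where 11.8% of all probe sets rose. Their summed level, in which perm-4 alone was at 13.48 to 13.67, was 14.70 to 14.71 there, 14.39 to 14.49 in utx-1 RNAi without males, 14.47 to 14.50 in glp-1 without males and 14.53 to 14.60 in glp-1 with males. Without RNAi, 2 of the 24 germ cell markers rose with males and 1 fell, against 5.65% and 6.15% of all probe sets, and their median was 0.10. The part of germ cell RNA in the values of the 41 genes was not tested.

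Markers of other tissues were counted in the same fit. Over all probe sets 6.15% fell and 5.65% rose with males without RNAi, and 9.03% fell and 11.8% rose under utx-1 RNAi. Of 14 body wall muscle markers 8 fell with males under utx-1 RNAi (median -0.45), where their summed level was 11.78 to 12.06 against 12.19 to 12.46 without males. Without RNAi 1 of the 14 fell (median -0.13, 9 of 14 negative), with overlapping summed levels of 12.18 to 12.40 with males and 12.39 to 12.49 without. Of 8 epidermis markers 3 fell with males in each RNAi background, with summed levels without RNAi of 9.63 to 9.95 with males and 10.36 to 10.64 without, and under utx-1 RNAi of 9.36 to 9.65 and 10.09 to 10.32. Below the array median on the 9 other arrays were 4 of the 8 epidermis and 0 of the 14 muscle markers. The 11 intestine markers had 1 fall and 2 rises in both backgrounds, and of the 10 neuron, 6 pharynx muscle and 23 sperm markers 0 passed in either. The part of these tissues in the values of the 41 genes was not tested.

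The effect of utx-1 RNAi on these genes was compared at each level of males. Without males, 0 of the 41 genes fell or rose by limma's adjusted p, against 0.129% and 0.0355% of all probe sets. At an unadjusted p under 0.05 there were 4, of which 3 were lower, against 3824 of all 22548 probe sets in either direction. The median difference was -0.09 beside -0.03 over all probe sets. In complex I, nuo-6 was at 8.16, 8.10 and 8.15 without RNAi and at 7.88, 7.91 and 7.89 under utx-1 RNAi, without overlap, yet its difference of -0.25 ± 0.07 had an adjusted p of 0.121. The assembly gene cox-18 was at -0.38 ± 0.10 (adjusted p = 0.112) and cox-15 at 0.23 ± 0.09 (adjusted p = 0.246), and cyc-1 at -0.21 (adjusted p = 0.268) and cox-6B at -0.17 (adjusted p = 0.295) followed. The short-lived mutant genes mev-1 and gas-1 were at -0.10 and -0.02.

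With males present, 4 of the 41 genes rose under utx-1 RNAi and 0 fell, against 8.96% and 5.07% of all probe sets, a share of rises near that of all probe sets. At an unadjusted limma p under 0.05 there were 7, of which 2 were lower, against 6402 of all 22548 probe sets in either direction. This comparison shares the 2 arrays of utx-1 RNAi with males with that of males under utx-1 RNAi, and the 4 genes were again asb-1 at 1.61 ± 0.18 (adjusted p = 5.44e-05), ucr-2.3 at 1.36 ± 0.17 (adjusted p = 0.000117), sdha-2 at 1.26 ± 0.17 (adjusted p = 0.000254) and cox-11 at 0.49 ± 0.09 (adjusted p = 0.00307). The median of the 41 genes was 0.01 beside -0.06 over all probe sets, and it was -0.063 with arrays centred on their medians and 0.077 with replicate 1 of utx-1 RNAi with males left out. Next in p were the copper delivery gene cox-17, at 5.28, 5.43 and 5.28 without RNAi and 5.09 and 5.04 under it (difference -0.26 ± 0.08, adjusted p = 0.0524), and sdha-1 at -0.34 ± 0.17 (adjusted p = 0.223).

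Whether the effect of males differed between the RNAi backgrounds was tested as the interaction, the males difference under utx-1 RNAi minus that without RNAi. It was past the threshold and positive for 5 of the 41 genes and negative for 0, against 6.42% and 1.23% of all probe sets. At an unadjusted p under 0.05 there were 7, all positive, against 4475 of all 22548 probe sets in either direction. The genes were asb-1 at 1.58 ± 0.24 (adjusted p = 0.00104), ucr-2.3 at 1.57 ± 0.22 (adjusted p = 0.000634), sdha-2 at 1.16 ± 0.23 (adjusted p = 0.00646), cox-11 at 0.59 ± 0.12 (adjusted p = 0.00935) and nuo-6 at 0.39 ± 0.10 (adjusted p = 0.0403). The first 4 rose with males under utx-1 RNAi, as above. The fifth, nuo-6, fell with males without RNAi and measured 7.88, 7.91 and 7.89 without males and 7.82 and 7.92 with males under utx-1 RNAi, a difference of -0.02 ± 0.08.

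The interaction of nuo-6 passed under 7 of 20 alternatives, with an adjusted p of up to 0.151 with replicate 3 of utx-1 RNAi with males left out, and was also lost when any array other than replicate 2 of glp-1 with males was left out. That of cox-11 had an adjusted p of 0.0591 after repeated quantile normalization. For 36 genes the interaction did not pass, which does not show that the effect of males was alike in both backgrounds. Among them were ucr-2.1 at -0.17 ± 0.11, asb-2 at 0.15 ± 0.15, gas-1 at -0.12 ± 0.14, asg-2 at -0.12 ± 0.14, ucr-2.2 at 0.04 ± 0.16 and mev-1 at 0.03 ± 0.09. The median interaction of the 41 genes was 0.08 beside -0.03 over all probe sets, and it was -0.034 with each array centred on its median.

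Other mitochondrial genes were counted with males in the same fit. Without RNAi, where 6.15% of all probe sets fell and 5.65% rose, 17 of 25 further nuclear complex I subunits fell and 0 rose (median -0.31), among them ndua-8 at -0.37, nduf-11 at -0.42 and ndua-12 at -0.36. Of 20 TCA cycle genes 9 fell and 0 rose (median -0.32). The smallest p in that list was that of dlat-1, the acetyltransferase subunit of pyruvate dehydrogenase, at 8.48, 8.40 and 8.44 without males and 7.95, 7.85 and 7.79 with males (-0.58 ± 0.07, adjusted p = 0.00102), followed by the mitochondrial isocitrate dehydrogenase gene idh-2 at -0.48 and dlst-1, of the alpha-ketoglutarate dehydrogenase complex, at -0.44. The coenzyme Q gene coq-1, which makes the polyprenyl tail, went from 7.53, 7.39 and 7.31 to 6.82, 6.83 and 6.64 (-0.64 ± 0.10, adjusted p = 0.00279), and 2 of 7 genes of that pathway fell (median -0.21). Every array with males lay below every array without for 22 of 25 further complex I subunits and 15 of 20 TCA cycle genes. The same held for 2 of 7 coenzyme Q genes, against 16.9% of all probe sets. The genes given by array, dlat-1 and coq-1, were among these and had the smallest p of their lists.

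Genes of mitochondrial protein synthesis and maintenance were set against the same shares of all probe sets, 6.15% for falls and 5.65% for rises. Of 59 mitochondrial ribosome genes 13 fell and 1 rose (median -0.14), of 13 import genes 2 fell (median -0.16), of 8 nucleotide and pyruvate carrier genes 1 fell (median -0.03), and of 11 genes of the mitochondrial unfolded protein response and proteases 0 passed (median -0.18). Outside the mitochondria, 6 of 16 glycolysis genes fell and 1 rose (median -0.26), the latter being the hexokinase gene hxk-1 at 0.66 ± 0.14 (adjusted p = 0.0127).

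Under utx-1 RNAi, where 9.03% of all probe sets fell with males and 11.8% rose, 5 of the 25 further complex I subunits fell and 1 rose, 7 of 20 TCA cycle genes fell and 1 rose, and 5 of 16 glycolysis genes fell and 1 rose, again hxk-1, at 1.02 ± 0.16 (adjusted p = 0.000794). Mitochondrial ribosome genes had 1 fall and 8 rises of 59 (median 0.04), a share of rises near that of all probe sets. The TCA cycle gene that rose was sucg-1, the GTP-specific beta subunit of succinyl-CoA synthetase, at 5.39, 5.45 and 5.40 without males and 6.25 and 6.13 with males, a rise of 0.78 ± 0.10 (adjusted p = 0.000126). Of the 13 import genes 1 rose and 0 fell (median 0.01), a share of rises below that of all probe sets. The import gene that rose, timm-17B.2, was at 2.40, 2.82 and 2.47 without males and 6.43 and 6.17 with males, a rise of 3.74 ± 0.17 (adjusted p = 5.68e-08). The coenzyme Q gene coq-1 fell by 0.88 ± 0.11 (adjusted p = 0.000165), as the 1 gene of 7 in its list. Of the 8 carrier genes 1 rose, ant-1.2 at 0.33, and of the 11 unfolded protein response and protease genes 1 fell, haf-1 at -0.49. With utx-1 RNAi compared in the presence of males, 15 of the 59 mitochondrial ribosome genes rose and 0 fell (median 0.22), against 8.96% and 5.07% of all probe sets, and in its absence 0 genes of these 8 lists passed.

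**Figure D4:**
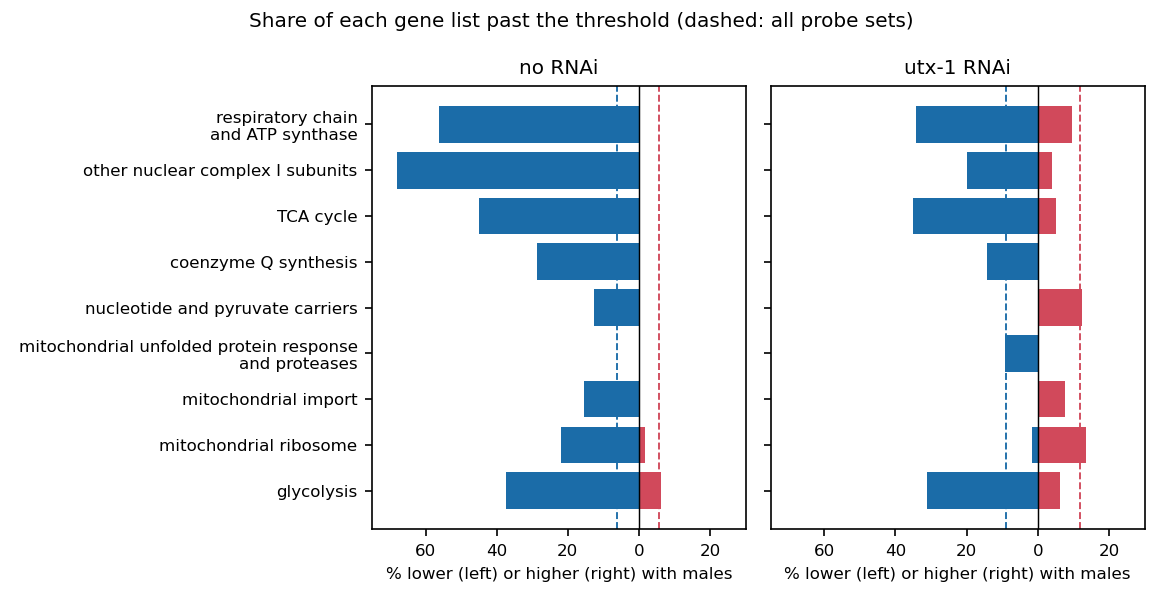
Share (%) of the members of each gene list that fell (left of 0) or rose (right of 0) with males at an adjusted p under 0.05, without RNAi and under utx-1 RNAi, with dashed lines at the share of all probe sets. Of the 41 respiratory chain and ATP synthase genes 56.1% fell without RNAi and 34.1% under utx-1 RNAi, and the falls of the further complex I subunits, the TCA cycle and glycolysis lists also lie beyond the dashed lines in both panels.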

How the data were processed

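Total RNA of 200 whole hermaphrodites per sample was hybridised to Affymetrix arrays, 1 array per sample. The authors deposited 1 log2 value per probe set and array, from RMA according to the submitters' processing notes, with no version or settings given. Such values understate changes of dim probe sets. Array medians lay between 3.77 and 3.97.

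The table held 22625 probe sets. The 77 controls were left out. Of the 22548 others, 20766 had 1 gene symbol in the platform annotation, 887 had several and 895 were not listed. Symbols were updated through the RefSeq gene table of WBcel235, used for names and chromosomes only. Related transcripts can bind to probe sets of the _s_at and _x_at kinds. Genes without a probe set of 1 symbol, and the mitochondrial DNA genes, were not analysed here.

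Samples were grouped by title. For 2 arrays under utx-1 RNAi, replicate 2 without males and replicate 3 with males, the description gives another replicate number, and the title was followed. No 2 arrays were copies (smallest SD of a difference within a group 0.171). Group means of the 11 arrays were fitted in 1 linear model (limma 3.58.1, R 4.3.3; lmFit and eBayes, 7 residual and 4.84 prior degrees of freedom), from which 5 comparisons were taken. The Benjamini-Hochberg adjustment ran over all probe sets, and the threshold was 0.05. The code of the fit was checked on simulated data with planted differences and independent noise, which does not test the calls made here. Same-numbered arrays did not deviate alike from their group means, so replicate numbers were not taken as pairs. Whether arrays were paired in another way was not tested.

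The text names, per comparison, the 2 genes of smallest p in each complex and a list of related and well known genes. The members and lists were chosen with earlier results of these data known. The alternatives changed the variance prior, the normalization, the filter on dim probe sets, the arrays in the fit, a block for the replicate number, array weights and the probe set of a gene, and left out each array in turn. Leaving out both arrays from utx-1 RNAi with males was added after the data were seen.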

Additional observations from a re-analysis of the deposited data

Results flagged for a closer look

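For 5 of the 41 genes the effect of males differed between the RNAi backgrounds by limma's interaction test at an adjusted p under 0.05. Each value here is the males difference under utx-1 RNAi minus that without RNAi, on the log2 scale. The ATP synthase gene asb-1 had 1.58 (-0.32 without RNAi and 1.26 under utx-1 RNAi), the core protein gene ucr-2.3 had 1.57 (-0.00 and 1.57) and the flavoprotein gene sdha-2 had 1.16 (-0.38 and 0.78). The assembly gene cox-11 had 0.59 (-0.11 and 0.48), and nuo-6 of complex I had 0.39 (-0.41 and -0.02). Both arrays from utx-1 RNAi with males also carried high levels of all 24 germ cell markers, and the part of these in the 5 values was not tested.

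In the other mitochondrial lists the same test passed, with positive values, for 3 of 20 TCA cycle, 6 of 59 mitochondrial ribosome, 2 of 13 import, 1 of 25 further complex I and 1 of 8 carrier genes, against 6.42% of all probe sets. The import genes were timm-17B.2 with 3.34 (adjusted p = 2.53e-06) and tomm-7 with 0.46 (adjusted p = 0.0463). In the list of further complex I subunits, nduf-2.2 had 2.096 (adjusted p = 1.35e-05). The TCA cycle genes were sucg-1 with 1.01 (adjusted p = 0.000292), idhg-1 with 0.42 (adjusted p = 0.0467) and dlat-1 with 0.40 (adjusted p = 0.0378). Among the mitochondrial ribosome genes were mrps-34 with 0.64 (adjusted p = 0.0131), mrpl-19 with 0.61 (adjusted p = 0.0181), mrps-27 with 0.52 (adjusted p = 0.0241) and mrps-16 with 0.72 (adjusted p = 0.0369), and the carrier gene ucp-4 had 0.63 (adjusted p = 0.0155), from -0.42 without RNAi to 0.21 under utx-1 RNAi.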

How the results depend on the processing

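The fall with males was recomputed under 22 alternatives, 11 of which left out 1 array. Without RNAi the median difference of the genes stayed negative under each. The count of genes that fell was 13 without probe sets ending in _s_at or _x_at, where 24 genes were left, and 13 to 25 with 1 array left out, the lowest with replicate 1 of glp-1 without males left out. Of 15 named calls, all of them falls, 10 passed in every alternative. The other genes that fell were not checked singly. Under utx-1 RNAi the count was 29 with arrays centred on their medians, where 5553 of all 22548 probe sets fell. The count was 8 with the arrays of the compared groups alone, 8 without _s_at and _x_at probe sets and 3 to 15 with 1 array left out. The lowest came with replicate 1 of utx-1 RNAi with males left out, and 6 came without replicate 1 or 2 of utx-1 RNAi without males. The median there was -0.36 with centred arrays and -0.27 to -0.18 with 1 array left out, and 2 genes rose without _s_at and _x_at probe sets. The 14 named calls here hold falls and the 4 rises, and are not the 14 genes that fell. Of these calls 6 passed in every alternative, the falls of gas-1, ucr-2.1 and asg-2 and the rises of asb-1, ucr-2.3 and cox-11. The falls of sdhb-1, ucr-1, atp-2 and atp-5 were not checked singly.

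For utx-1 RNAi with males the median was -0.063 with centred arrays and -0.031 to 0.077 with 1 array left out. In that comparison 2 genes rose without _s_at and _x_at probe sets, and against 0 in the report 2 fell with centred arrays, 1 with array weights, 1 with probe sets above the median level, 1 with repeated quantile normalization and 0 to 1 with 1 array left out, the 1 with replicate 3 of utx-1 RNAi without males left out. All 4 rises passed in every alternative that gave a value. The median interaction changed sign to -0.034 with centred arrays, and 3 interactions passed without _s_at and _x_at probe sets. Of 5 named interactions 3 passed in every alternative, and no named gene changed direction where either value was past the threshold. The causes of these changes were not tested.

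Over all probe sets, centring turned the falling share of calls from 43.3% to 73.4% for males under utx-1 RNAi, from 36.1% to 63.6% for utx-1 RNAi with males and from 16.1% to 49.6% for the interaction, and repeated quantile normalization gave 57.3%, 50.3% and 36.1%. For the 41 genes under utx-1 RNAi, the falling share of calls with males was 77.8%, and 87.9% with centring. Deviations of same-numbered arrays from their group means correlated at -0.35 to 0.051 over 15 pairs, so the replicate numbers were not taken as pairs. With the replicate number as a block, 16 genes fell with males without RNAi and 6 under utx-1 RNAi, 4 rose there, and 4 interactions passed.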
